A study of Mus musculus with 8 samples.

Results

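Mouse osteoblast progenitors exposed to locamidazole (LAMZ) for 7 days were compared with vehicle-treated cells that had been in culture for 14 days. The members were the 2 day 7 LAMZ libraries and the 2 day 14 control libraries, 4 of the 8 RNA sequencing libraries of the series, chosen by their labels. The question was which genes of osteoblast maturation already stood at or above the level of the older control after 7 days of LAMZ, and which did not. Day 7 LAMZ cells received LAMZ at 1 μM in differentiation medium with serum, ascorbic acid, dexamethasone and β-glycerophosphate, whereas day 14 control cells received DMSO in the same medium. The other 4 libraries were the 2 day 7 control and the 2 day 14 LAMZ libraries. Drug and days in culture both differ between the groups compared, so the effects of drug and of time cannot be told apart from this comparison alone. The sample labels name the cells MC3T3-E1, a preosteoblast line from mouse calvaria, whereas the methods and the title of the series name cultured calvarial cells. All 8 libraries held Col1a1 at 4354 to 9964 RPKM, the read count of a gene per kilobase of exon and per unit of library depth, and the control libraries also held macrophage markers, with a summed level of 490 to 1240 RPKM, against 8.82 to 10.9 RPKM in the LAMZ libraries. In bulk RNA, fewer cells of a type and less RNA in each cell cannot be told apart. No source says whether the 2 libraries of a group came from separate cultures. The p-values rest on the spread between the libraries of a group, pooled over all 4 groups, which may be technical. Groups outside the comparison thus also set the standard error of a gene.

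Osteoblasts mature in overlapping steps. The transcription factors Runx2 and Sp7 commit progenitors to the lineage, which then secrete and cross-link collagen I osteoid. Alkaline phosphatase and its partners release phosphate for mineral, and acidic matrix proteins such as bone sialoprotein and osteopontin bind it. Osteocalcin is a marker of late osteoblasts, and Dmp1, Mepe and Sost mark the passage to osteocytes. Dexamethasone, ascorbic acid and β-glycerophosphate drive these steps in culture.

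Each library held between 3463557 and 5832069 mapped reads, a number recovered from the RPKM values. Differences below are day 7 LAMZ minus day 14 control on the log2(RPKM + 1) scale, fitted with limma, with the standard error (SE) and the Benjamini-Hochberg adjusted p. A gene was called higher or lower at an adjusted p under 0.05. An uncalled gene was placed within 2-fold where the 95% interval of its difference lay between -1 and 1, and left unplaced where it did not. Folds are ratios of the 2 group means in RPKM. Values of a group are given as replicate 1 and replicate 2. Of 12514 genes tested, 9.33% were called higher and 12.9% lower, which makes 22.2% in all. A further 65.9% were within 2-fold, and 11.9% were left unplaced. The median difference of all tested genes was -0.03.

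Of 75 maturation genes in 6 lists, 71 were tested. There, 26 were higher in day 7 LAMZ than in day 14 control cells, 8 were lower, 33 were within 2-fold and 4 were left unplaced. The median difference of the 71 genes was 0.34. In 56 of them the libraries of the 2 groups did not overlap, against 62.9% of all tested genes. Genes above the later control came from every list, among them Runx2, Sp7, Alpl, Ibsp, Spp1 and Dmp1. Of those named, only Dmp1 was also called higher at day 14 than at day 7 in control cells. The difference of day 14 and day 7 control was 0.16 for Runx2, 0.17 for Sp7 and 0.13 for Ibsp. It was 0.655 for Alpl, 1.24 for Spp1 and 1.39 for Dmp1. A level above day 14 control is thus not by itself a sign of a later stage. The osteocalcin genes Bglap and Bglap2 lay farthest below the later control. The transcripts of collagen I, Col1a1 and Col1a2, were within 2-fold of it as deposited. Both were called lower with libraries scaled to the same sum over the tested genes, a sum that includes the 7SL RNA gene Rn7s1. With the same sum over nuclear protein-coding genes, a scaling chosen after seeing the data, both stayed within 2-fold. The 4 untested genes were Dspp, Fgf23, Reln and Kera, which were at or below 0.308 RPKM in all 4 libraries compared.

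**Figure D1:**
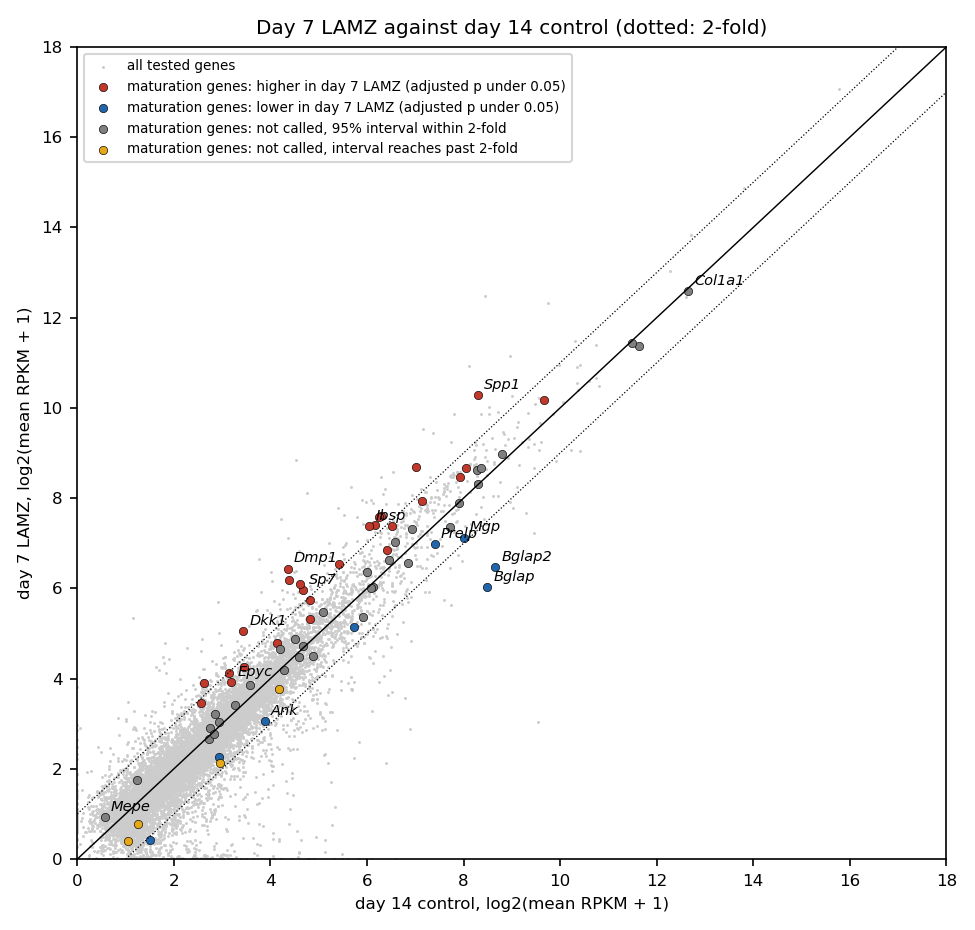
Mean level of each tested gene in day 7 LAMZ cells (vertical axis, log2(mean RPKM + 1)) against day 14 control cells (horizontal axis, same scale), with the 71 maturation genes coloured by call and the dotted lines at 2-fold. Dmp1, Spp1 and Dkk1 lie above the upper dotted line, whereas Bglap and Bglap2 lie below the lower one.

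**Figure D2:**
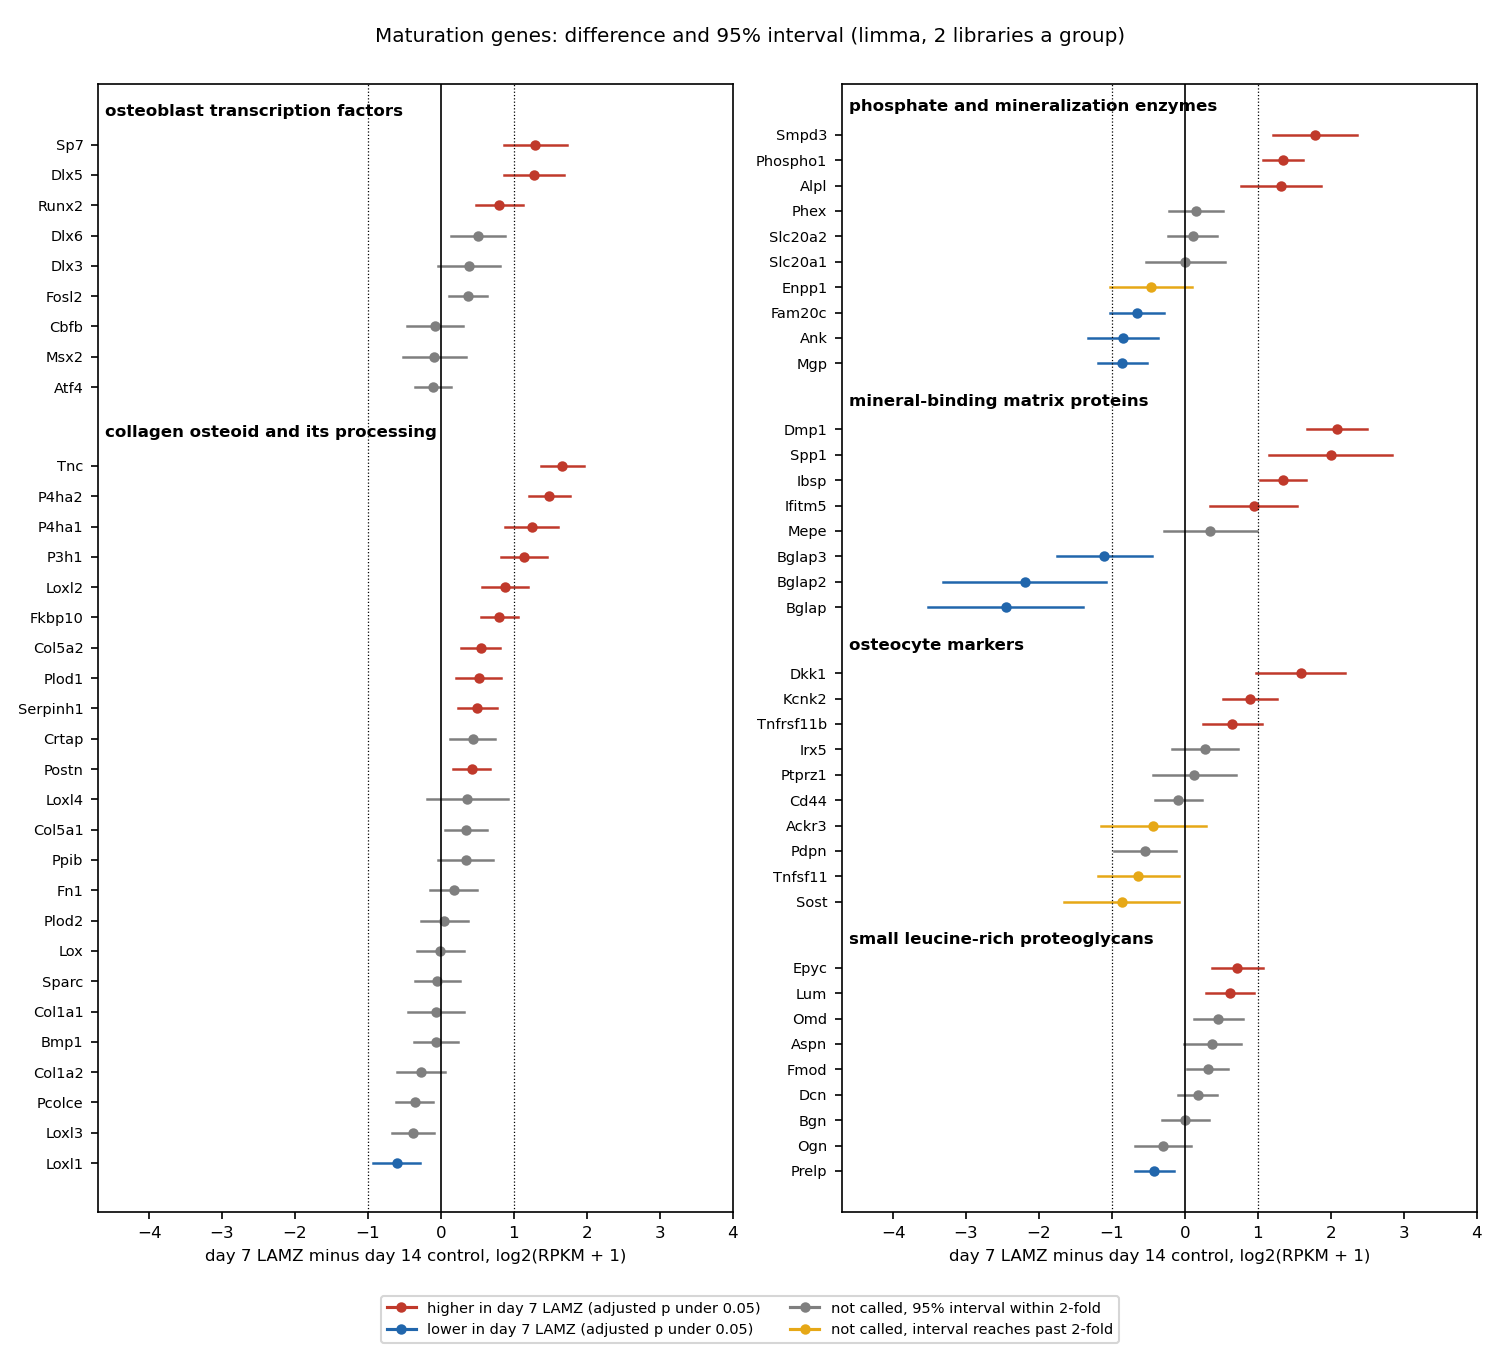
Difference of the tested maturation genes named in the text (points) with its 95% interval (bars) on the log2(RPKM + 1) scale, by list, from 2 libraries a group. Differences run from -2.46 for Bglap to 2.09 for Dmp1, and both ends belong to the mineral-binding matrix proteins.

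Among 10 osteoblast transcription factors, 4 were higher in day 7 LAMZ cells, none was lower and 6 were within 2-fold. Sp7, or osterix, which acts downstream of Runx2, was 60.4 and 62.2 RPKM in day 7 LAMZ libraries and 23.8 and 25.1 RPKM in day 14 control libraries. Its mean was 2.51-fold higher, with a difference of 1.29 (SE 0.19, adjusted p = 0.00255, limma). Sp7 lies at chr15:102356606-102367182 on the minus strand. Runx2, the master factor of the lineage, was 17.6 and 18.7 RPKM against 9.40 and 10.6 RPKM. The difference of Runx2 was 0.80 (SE 0.14, adjusted p = 0.00623). With libraries scaled to the same sum over the tested genes it was 0.27 (adjusted p = 0.182), and Runx2 was not called. In RPKM as deposited, both factors were higher in each LAMZ library than in each control library. Dlx5, a homeobox factor of early osteoblasts, was 15.3 and 12.5 RPKM against 4.45 and 5.91 RPKM, a 2.69-fold higher mean.

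The other 6 factors did not pass the test. Dlx3 was 8.18 and 8.54 RPKM in day 7 LAMZ and 5.64 and 6.70 RPKM in day 14 control cells (difference 0.39, interval -0.04 to 0.82). Dlx6 had a difference of 0.51 (adjusted p = 0.0564) and Fosl2 one of 0.37 (adjusted p = 0.0524), with no overlap between the groups for either gene. Atf4, a stress-responsive factor that acts in osteoblasts, had a difference of -0.11, Cbfb, the binding partner of Runx proteins, one of -0.08, and Msx2 one of -0.09. The 95% intervals of these 3 genes lay between -0.52 and 0.34.

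Among 24 genes of collagen osteoid and its processing, 10 were higher, 1 was lower and 13 were within 2-fold. The collagen I chains themselves did not pass the test. Col1a1 was 6252 and 6050 RPKM in day 7 LAMZ and 6658 and 6220 RPKM in day 14 control libraries (difference -0.07, interval -0.45 to 0.31). Col1a2 was 2696 and 2599 RPKM against 3268 and 3118 RPKM (difference -0.27, interval -0.60 to 0.06). The 2 groups overlapped for Col1a1 and not for Col1a2. With libraries scaled to the same sum over the tested genes both were called lower, Col1a1 at -0.64 (adjusted p = 0.0203) and Col1a2 at -0.84 (adjusted p = 0.00336). After quantile normalization Col1a2 was again called lower, at -0.76 (adjusted p = 0.00876), and Col1a1 was left unplaced, as both were with no filter on low values. With the same sum over nuclear protein-coding genes both stayed within 2-fold. Sparc, or osteonectin, which binds collagen and mineral, had a difference of -0.05. Scaled to the same sum over the tested genes, Sparc was called lower at -0.62 (adjusted p = 0.00701, limma). After quantile normalization it was called lower at -0.59 (adjusted p = 0.00657).

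The higher genes of this list included the collagen-modifying enzymes P4ha1, P4ha2, P3h1, Plod1 and Loxl2. P4ha2, a subunit of prolyl 4-hydroxylase, was 69.6 and 65.0 RPKM in day 7 LAMZ and 22.7 and 24.2 RPKM in day 14 control libraries. This was a 2.87-fold higher mean, with a difference of 1.48 (SE 0.12, adjusted p = 0.00018). P4ha1, the other catalytic subunit measured, was 176 and 163 RPKM against 63.7 and 78.7 RPKM, and P3h1, a prolyl 3-hydroxylase, was 87.7 and 97.2 RPKM against 37.0 and 46.4 RPKM. The LAMZ libraries were above the control libraries for each of these enzymes. Fkbp10, a prolyl isomerase of the endoplasmic reticulum, was 1.75-fold higher, Loxl2, a lysyl oxidase, 1.84-fold, Plod1, a lysyl hydroxylase, 1.45-fold, and Serpinh1, the collagen chaperone Hsp47, 1.41-fold. Tnc, the matrix glycoprotein tenascin-C, had the largest difference of this list. It was 411 and 408 RPKM against 122 and 135 RPKM, with a difference of 1.66 (SE 0.13, adjusted p = 0.000124). Col5a2, a collagen V chain, and Postn, or periostin, completed the higher genes with differences of 0.54 and 0.42. Loxl1, a lysyl oxidase needed for elastic fibres, was the gene called lower, at 34.2 and 34.1 RPKM against 54.1 and 50.9 RPKM (difference -0.60, adjusted p = 0.0195).

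Of the remaining genes within 2-fold in this list, Crtap, which forms a complex with P3h1 and Ppib, had a difference of 0.44 (adjusted p = 0.0519), and Ppib itself one of 0.34. Pcolce, an enhancer of procollagen cleavage, and Bmp1, the enzyme that cleaves it, had differences of -0.36 and -0.07. Lox, Loxl3, Loxl4, Plod2, Col5a1 and Fn1 lay between -0.39 and 0.36. Leaving out day 7 LAMZ replicate 1, day 7 LAMZ replicate 2 or day 14 control replicate 1 ended the calls of Col5a2, Serpinh1, Plod1, Postn and Loxl1, with adjusted p values between 0.0706 and 0.144. Without day 14 control replicate 2 the calls of Serpinh1, Postn and Loxl1 were lost, at 0.0793, 0.0845 and 0.0585. With libraries scaled to the same sum over the tested genes 4 genes of this list were higher and 9 lower, and the differences of Col5a2, Serpinh1, Plod1 and Postn turned to between -0.14 and -0.03. After quantile normalization 7 genes of this list were higher and 5 lower. Lox was among the lower genes in both settings.

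The 10 genes of phosphate handling and mineralization split, with 3 higher, 3 lower, 3 within 2-fold and 1 left unplaced. The higher ones were the phosphatases Alpl and Phospho1 and the sphingomyelinase Smpd3. Alpl, tissue-nonspecific alkaline phosphatase, was 200 and 188 RPKM in day 7 LAMZ libraries and 73.3 and 81.3 RPKM in day 14 control libraries. The mean of Alpl was 2.51-fold higher, with a difference of 1.32 (SE 0.24, adjusted p = 0.00688). Phospho1, a phosphatase of matrix vesicles, was 196 and 187 RPKM against 68.6 and 80.9 RPKM (difference 1.35, SE 0.12, adjusted p = 0.00025). Smpd3, a sphingomyelinase required for bone mineralization, was 74.4 and 68.3 RPKM against 20.1 and 20.0 RPKM, a 3.56-fold higher mean. For all 3 genes the lowest LAMZ library was above the highest control library. The call of Alpl was lost without day 7 LAMZ replicate 1 (adjusted p = 0.0517) and without day 14 control replicate 1 (0.0513).

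The genes called lower act on mineral in other ways. Mgp, matrix Gla protein, an inhibitor of calcification, was 139 and 138 RPKM against 219 and 291 RPKM (difference -0.86, SE 0.15, adjusted p = 0.00512). Ank, which exports the mineral inhibitor pyrophosphate or its precursor, was 8.90 and 5.75 RPKM against 12.8 and 14.7 RPKM. Fam20c, the kinase that phosphorylates acidic matrix proteins, was 3.72 and 3.91 RPKM against 7.23 and 6.02 RPKM. Ank and Fam20c had adjusted p values of 0.0246 and 0.0232. Fam20c was not called without day 7 LAMZ replicate 1, day 7 LAMZ replicate 2 or day 14 control replicate 1 (adjusted p 0.114, 0.0918 and 0.128), nor Ank without day 7 LAMZ replicate 2, day 14 control replicate 1 or day 14 control replicate 2 (0.137, 0.074 and 0.114). Enpp1, which makes pyrophosphate, was 0.640 and 0.805 RPKM against 1.03 and 1.77 RPKM and was left unplaced (difference -0.46, interval -1.03 to 0.10). Phex, a peptidase of osteoblasts and osteocytes that restrains phosphate loss, and the phosphate carriers Slc20a1 and Slc20a2 had differences between 0.01 and 0.15.

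The mineral-binding matrix proteins held the widest split. Of 8 tested, 4 were higher, 3 were lower and 1 was within 2-fold. The sequences 250 bases before the start site of 3 of the higher genes and of osteocalcin are shown, since these genes lie at opposite ends of the comparison. They are from RefSeq on GRCm38.p6, 5′ to 3′ on the strand of the gene, with the core motif of Runx factors, ACCACA on either strand, in capitals. Bglap is at chr3:88384467-88384716 (minus strand), Dmp1 at chr5:104202367-104202616, Spp1 at chr5:104434861-104435110 and Ibsp at chr5:104299037-104299286 (all plus strand).
Bglap: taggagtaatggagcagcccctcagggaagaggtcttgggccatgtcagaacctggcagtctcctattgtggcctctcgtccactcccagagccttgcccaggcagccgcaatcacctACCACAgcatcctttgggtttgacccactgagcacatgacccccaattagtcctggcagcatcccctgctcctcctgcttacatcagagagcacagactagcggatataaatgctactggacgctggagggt
Dmp1: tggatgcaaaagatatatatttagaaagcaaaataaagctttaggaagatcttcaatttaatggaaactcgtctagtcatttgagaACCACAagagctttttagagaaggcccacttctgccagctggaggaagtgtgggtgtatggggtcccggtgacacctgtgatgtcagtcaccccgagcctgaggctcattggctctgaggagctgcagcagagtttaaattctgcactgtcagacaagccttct
Spp1: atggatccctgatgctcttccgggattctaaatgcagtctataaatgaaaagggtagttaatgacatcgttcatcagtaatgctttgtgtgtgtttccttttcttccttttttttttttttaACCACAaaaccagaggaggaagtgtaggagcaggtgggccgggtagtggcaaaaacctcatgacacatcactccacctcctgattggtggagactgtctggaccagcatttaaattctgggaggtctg
Ibsp: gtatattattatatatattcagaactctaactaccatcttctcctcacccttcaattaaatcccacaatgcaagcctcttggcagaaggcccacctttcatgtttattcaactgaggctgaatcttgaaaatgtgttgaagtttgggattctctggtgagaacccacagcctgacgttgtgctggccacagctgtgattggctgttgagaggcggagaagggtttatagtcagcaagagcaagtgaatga
The motif stood 132 bases before the start of Bglap, 164 before that of Dmp1 and 128 before that of Spp1, and these letters were not in the window of Ibsp. Of all 32851 windows of this length, 14.0% held the motif. Among the maturation genes with a window, it was in 5 of 17 called higher, in 1 of 5 called lower and in 4 of 22 within 2-fold. A match of letters is a description and not a binding site.

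Dmp1, dentin matrix protein of late osteoblasts and early osteocytes, was 85.5 and 86.2 RPKM in day 7 LAMZ libraries and 19.9 and 19 RPKM in day 14 control libraries. The mean was 4.41-fold higher, with a difference of 2.09 (SE 0.18, adjusted p = 0.000201). In day 7 control libraries Dmp1 was 5.57 and 8.25 RPKM, so it had also risen with time in control cells (difference of day 14 and day 7 control 1.39, adjusted p = 0.0088). Spp1, osteopontin, was 1380 and 1114 RPKM against 266 and 361 RPKM, a 3.98-fold higher mean (difference 2.00, SE 0.36, adjusted p = 0.00698). Spp1 in day 7 control libraries was 84.0 and 204 RPKM. Ibsp, bone sialoprotein, was 167 and 166 RPKM against 66.2 and 63.4 RPKM (difference 1.35, SE 0.14, adjusted p = 0.000484). Dmp1, Ibsp and Spp1 are neighbours on chromosome 5. Ifitm5, a membrane protein of osteoblasts, was 52.4 and 53.4 RPKM against 25.8 and 28.3 RPKM, with an adjusted p of 0.0351. Mepe, a phosphoglycoprotein of osteocytes, had 8 and 6 reads in day 7 LAMZ and 4 and 4 reads in day 14 control libraries, and its difference was 0.35 (interval -0.29 to 0.98). Its mean was 1.86-fold higher in RPKM, and the 1 RPKM added before the log shrinks differences at such low levels. The placement of Mepe within 2-fold held in 6 of 14 alternative settings and was lost with 0.1 RPKM added, so it does not show a like level. The day 14 LAMZ libraries held 47 and 75 reads of Mepe.

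Osteocalcin was not at the later control level. Bglap was 61.1 and 67.7 RPKM in day 7 LAMZ and 351 and 364 RPKM in day 14 control libraries. The mean was 5.55-fold lower, with a difference of -2.46 (SE 0.46, adjusted p = 0.00785). Bglap2 was 96.1 and 78.7 RPKM against 376 and 431 RPKM (difference -2.20, SE 0.48, adjusted p = 0.0156). In day 7 control libraries Bglap was 22.7 and 70.5 RPKM and Bglap2 26.5 and 95 RPKM. The fit pooled the spread between these day 7 control libraries into the SE of both genes. The day 7 LAMZ values of Bglap lay between these replicates, and those of Bglap2 lay close to the higher one. The difference of day 7 LAMZ and day 7 control was 0.66 for Bglap (interval -0.39 to 1.72) and was not called, whereas that of day 14 and day 7 control was 3.12 (adjusted p = 0.0131). Bglap3 was 0.535 and 0.146 RPKM, or 6 and 2 reads, against 1.70 and 2.02 RPKM, or 24 reads in each control library. The longest coding transcripts of Bglap and Bglap2 are identical over 434 of 440 aligned bases (98.6%), so reads of the osteocalcin genes may be shared between them and their separate values are uncertain. Without day 7 LAMZ replicate 1 the call of Bglap was lost (difference -2.38, adjusted p = 0.0559). The calls of Bglap2 and Bglap3 were lost without any 1 of the 4 libraries, at adjusted p values from 0.0576 for Bglap3 without day 7 LAMZ replicate 1 to 0.144 for Bglap3 without day 7 LAMZ replicate 2, as was that of Ifitm5, at 0.1 to 0.151. Spp1 was not called without day 7 LAMZ replicate 1 or without day 14 control replicate 1 (adjusted p = 0.0565 in both).

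**Figure D3:**
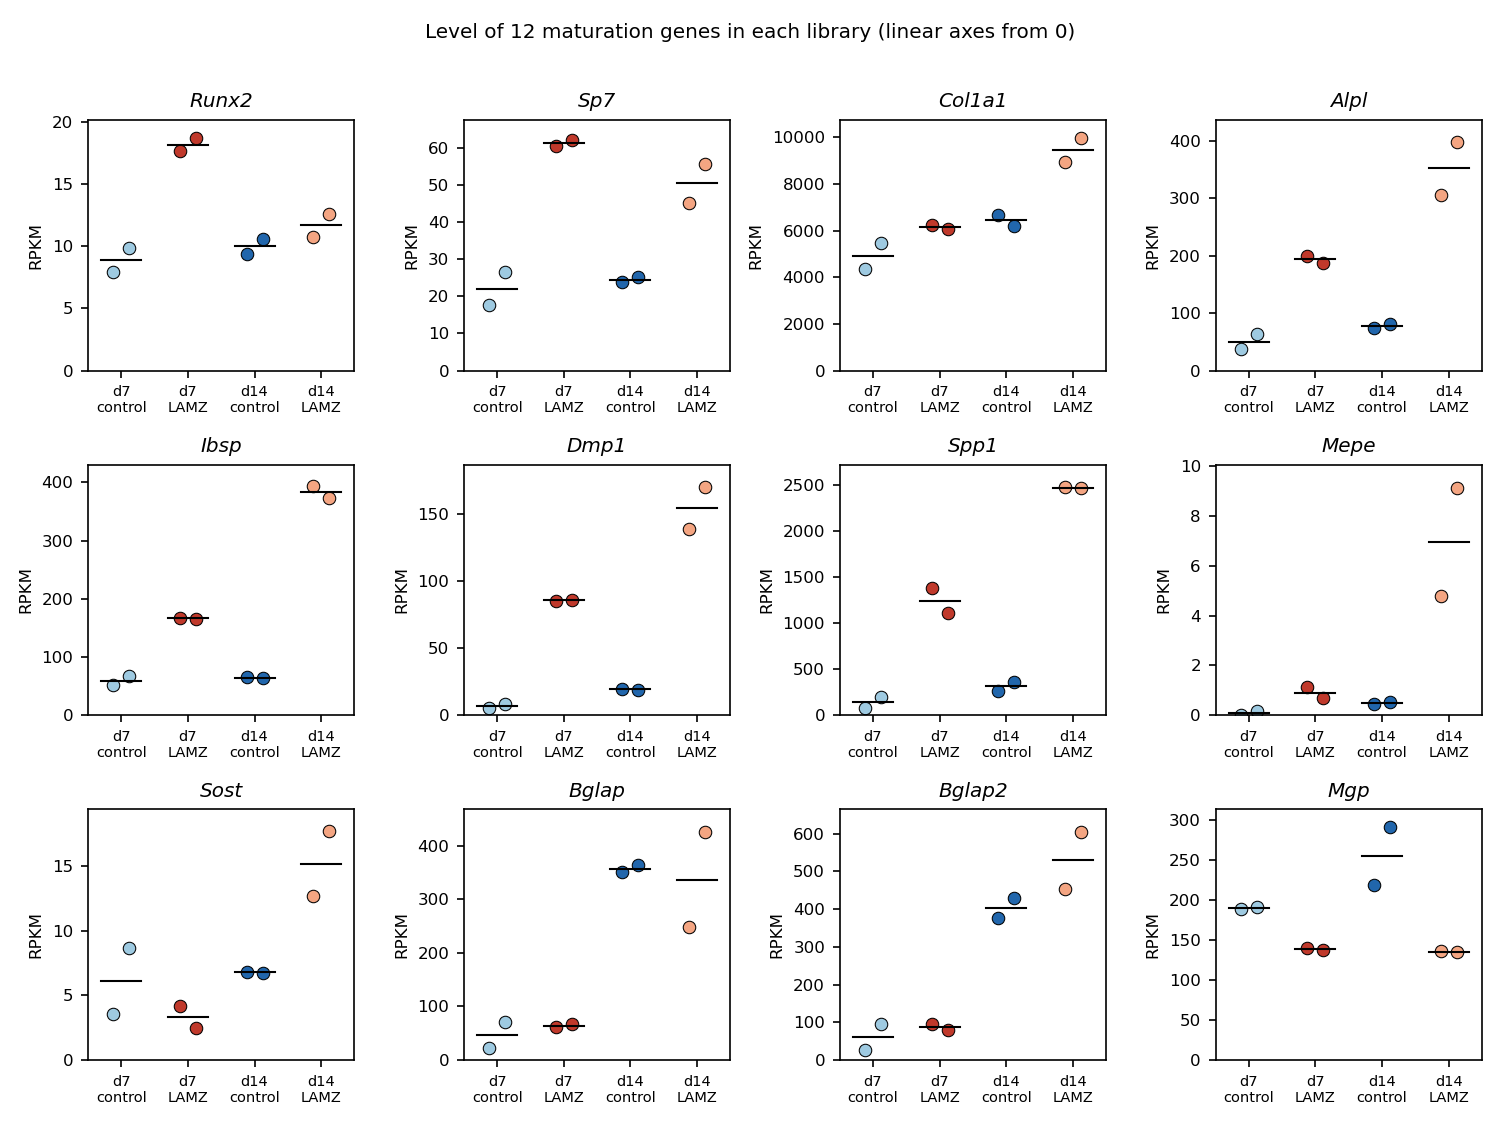
Level in RPKM (vertical axes, linear from 0) of 12 maturation genes in each of the 8 libraries, with points for libraries and a line for the mean of each group of 2. Sp7, Alpl, Ibsp, Dmp1 and Spp1 in day 7 LAMZ lie above day 14 control, Col1a1 lies close to it in RPKM as deposited, and Bglap and Bglap2 lie near day 7 control.

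Of 10 osteocyte markers tested, 3 were higher, none was lower, 4 were within 2-fold and 3 were left unplaced. Dkk1, a secreted Wnt inhibitor, was 39.2 and 25.1 RPKM in day 7 LAMZ and 8.90 and 10.8 RPKM in day 14 control libraries (difference 1.59, SE 0.26, adjusted p = 0.00485). Kcnk2, a mechanosensitive potassium channel, was 10.3 and 9.75 RPKM against 4.33 and 5.55 RPKM. Tnfrsf11b, osteoprotegerin, the decoy receptor for RANKL, was 28.2 and 25.4 RPKM against 17 and 16.4 RPKM, with an adjusted p of 0.0329. Without 1 library that of Tnfrsf11b rose to between 0.0951 (day 7 LAMZ replicate 2) and 0.165 (day 7 LAMZ replicate 1), through 0.112 and 0.119 for day 14 control replicates 1 and 2.

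Sost and Tnfsf11, both made by osteocytes, had lower values and did not pass the test. Sost, sclerostin, was 4.20 and 2.51 RPKM in day 7 LAMZ libraries and 6.85 and 6.75 RPKM in day 14 control libraries (difference -0.87, interval -1.66 to -0.08, adjusted p = 0.109). Tnfsf11, RANKL, had 2 and 5 reads against 10 and 13 reads (difference -0.64, adjusted p = 0.0984). Ackr3, a chemokine receptor, was 15.8 and 9.63 RPKM against 15 and 19.2 RPKM. The interval of each of these 3 genes reached past 2-fold lower, so none was placed within 2-fold. The intervals of Sost and Tnfsf11 (-1.20 to -0.08) lay wholly on the lower side, and that of Ackr3 (-1.15 to 0.29) did not. None of the 3 passed the adjusted p, so a lower level was not settled by this fit. Sost was called lower with only the 4 compared libraries fitted (adjusted p = 0.0419, limma). With libraries scaled to the same sum over the tested genes, Sost, Tnfsf11 and Ackr3 were called lower. Their differences were then -1.34, -0.87 and -0.97 (adjusted p = 0.0154, 0.0206 and 0.04). Irx5, Ptprz1 and Cd44 had differences of 0.28, 0.13 and -0.09. Pdpn, a marker of early osteocytes, was 38.5 and 42.3 RPKM against 56.5 and 62.6 RPKM (difference -0.55, adjusted p = 0.0703). Its placement within 2-fold held in 5 of 15 alternative settings. Pdpn was called lower with only the 4 compared libraries fitted (adjusted p = 0.0305) and after quantile normalization (0.0236). Scaling to the same sum over nuclear protein-coding genes (0.024) or over the tested genes (0.00146) gave the same call.

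Of 9 small leucine-rich proteoglycans, which organise collagen fibrils, 2 were higher, 1 was lower and 6 were within 2-fold. Lum, lumican, was 380 and 428 RPKM against 236 and 290 RPKM (difference 0.62, adjusted p = 0.0175), and Epyc, epiphycan, was 12.1 and 16.2 RPKM against 7.78 and 8.46 RPKM. Prelp was lower at 118 and 134 RPKM against 166 and 171 RPKM (difference -0.42, adjusted p = 0.0362). Bgn, Dcn, Fmod, Aspn, Omd and Ogn had differences between -0.30 for Ogn and 0.46 for Omd. Prelp was not called without any 1 of the 4 libraries (adjusted p 0.072 without day 7 LAMZ replicate 2 to 0.206 without day 7 LAMZ replicate 1). Lum was not called without day 7 LAMZ replicate 1, day 7 LAMZ replicate 2 or day 14 control replicate 1 (0.0569, 0.113 and 0.0979), nor Epyc without the last 2 of these (0.0817 and 0.0754).

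The levels of several maturation genes depend on which reads were given to them. Phospho1 shares exon sequence with Abi3 and Zfp652, Smpd3 with Prmt7, Fkbp10 with Nt5c3b and Ifitm5 with Gm45717. Whether the authors counted reads by strand is not given in the sources used here, so the values of these genes are uncertain.

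The same genes were also compared with day 7 control cells. These comparisons reuse the day 14 control or the day 7 LAMZ libraries, so they are not independent of the main one. Among the 71 genes, the comparison of day 14 and day 7 control called 7 higher at day 14 and 2 lower, against 2.46% and 2.4% of all tested genes and 4.86% either way. That of day 7 LAMZ and day 7 control called 33 higher in LAMZ and 2 lower, against 4.35% and 8.49% of all tested genes and 12.8% either way. The 7 genes that rose with time in control cells were Dlx3, Loxl4, Bglap, Bglap2, Dmp1, Prelp and Omd. Against day 14 control, day 7 LAMZ was higher for Dmp1, within 2-fold for Dlx3, Loxl4 and Omd, and lower for Bglap, Bglap2 and Prelp. The 2 genes called lower at day 14 in control cells were Tnc, which went from 215 and 216 RPKM at day 7 to 122 and 135 RPKM (difference -0.74, adjusted p = 0.0208), and P3h1, which went from 67.4 and 61.6 RPKM to 37.0 and 46.4 RPKM (difference -0.62, adjusted p = 0.0458). Day 7 LAMZ was above both control groups in RPKM for Tnc and P3h1. Loxl4 was 48.9 and 37.8 RPKM in day 7 LAMZ, 30.8 and 35.8 RPKM in day 14 control and 11.1 and 19.4 RPKM in day 7 control libraries. Omd, osteomodulin, was 27.5 and 21.2 RPKM in day 7 LAMZ, 17.6 and 17.1 RPKM in day 14 control and 9.08 and 8.09 RPKM in day 7 control libraries.

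Receptors and signals of the osteoblast were measured in 2 further lists. Of 12 hormone and growth factor receptors, 3 were higher, 1 was lower and 8 were within 2-fold. Fgfr2, a fibroblast growth factor receptor of osteoprogenitors, was 102 and 96.1 RPKM against 45.7 and 44.5 RPKM (difference 1.12, adjusted p = 0.000446). Pth1r, the parathyroid hormone receptor, was 138 and 105 RPKM against 61.1 and 76.3 RPKM, and Fgfr3 was 12.3 and 9.49 RPKM against 6.61 and 6.74 RPKM. Nr3c1, the glucocorticoid receptor that binds dexamethasone, was 9.19 and 10.2 RPKM against 16.9 and 17.7 RPKM (difference -0.78, adjusted p = 0.00261). Fgfr1 and Bmpr1a, the most abundant uncalled receptors, had differences of -0.11 and 0.11. Pth1r was not called without day 7 LAMZ replicate 1 or day 14 control replicate 1 (adjusted p = 0.109 and 0.1), nor Fgfr3 without any 1 library (0.0632 without day 7 LAMZ replicate 2 to 0.232 without day 7 LAMZ replicate 1).

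Of 24 Wnt, BMP, IGF and TGF-β signals, 5 were higher, 3 were lower, 14 were within 2-fold and 2 were left unplaced. Sfrp1, a secreted Wnt inhibitor, was 9.92 and 11.9 RPKM in day 7 LAMZ and 111 and 107 RPKM in day 14 control libraries, a 10.0-fold lower mean (difference -3.21, SE 0.19, adjusted p = 4.06e-05). Tcf7, a transcription factor and target of Wnt signaling, was 28.6 and 26.4 RPKM against 8.02 and 9.69 RPKM. Igf2, insulin-like growth factor 2, was 601 and 780 RPKM against 163 and 164 RPKM, a 4.22-fold higher mean. Igfbp5, which binds it in the matrix, was 270 and 318 RPKM against 132 and 145 RPKM. Igf2 shares exon sequence with Gm49394, so the level of Igf2 is uncertain. Igfbp2 and Dkk3 had differences of 0.09 and 0.11 and overlapped between the groups.

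Matrix proteases and their inhibitors were lower more often than higher, with 5 of 14 lower, 1 higher, 6 within 2-fold and 2 left unplaced. The 5 lower include Mmp3, which reached 1 RPKM in the 2 day 14 control libraries and in no other library. Mmp3 was thus tested only through the group where it was high, and its call adds no support to this count. Adamts5, an aggrecanase, was 7.80 and 7.83 RPKM against 34.0 and 31.6 RPKM (difference -1.94, SE 0.15, adjusted p = 0.000128). Adamts1 was 11.1 and 9.20 RPKM against 23.4 and 22.8 RPKM, and Timp3, a protease inhibitor of the matrix, was 28.1 and 29.4 RPKM against 73.6 and 79.5 RPKM. Mmp3 had 2 and 3 reads against 12 and 26 reads, and its call was lost without day 7 LAMZ replicate 1 (adjusted p = 0.103), day 7 LAMZ replicate 2 (0.0903) or day 14 control replicate 2 (0.108). Mmp2 and Timp1 had differences of -0.12 and 0.55.

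Cartilage genes were mostly higher. Of 18 tested, 13 were higher, 1 was lower, 3 were within 2-fold and 1 was left unplaced, with a median difference of 1.41. Acan, aggrecan, the main proteoglycan of cartilage, was 51.0 and 51.5 RPKM in day 7 LAMZ and 5.83 and 7.17 RPKM in day 14 control libraries, a 7.89-fold higher mean (difference 2.81, SE 0.21, adjusted p = 0.000116). Hapln1, which links aggrecan to hyaluronan, was 16.8 and 17.9 RPKM against 2.65 and 1.79 RPKM, and Col9a1, a collagen IX chain, was 23.6 and 25.5 RPKM against 3.86 and 3.80 RPKM. Matn1, a cartilage matrilin, had 57 and 65 reads against 1 and 0 reads. Sox9, the transcription factor of chondrocytes, was 7.43 and 6.68 RPKM against 7.88 and 7.17 RPKM (difference -0.08, interval -0.46 to 0.29), and Col11a2 had a difference of 0.48. Comp, cartilage oligomeric matrix protein, named after its values were seen as the gene called lower, was 23.0 and 19.2 RPKM against 65.0 and 67.1 RPKM. The day 7 control level of Comp was 22.4 and 20.8 RPKM.

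Cell cycle genes stood above the later control. Of 22 tested, 17 were higher, none was lower and 5 were within 2-fold, with a median difference of 0.88. Ccnb1, cyclin B1, was 11.6 and 11.9 RPKM in day 7 LAMZ, 3.05 and 3.78 RPKM in day 14 control and 12 and 13.3 RPKM in day 7 control libraries (difference from day 14 control 1.53, SE 0.13, adjusted p = 0.00021). Top2a, topoisomerase II of dividing cells, was 13.0 and 13.5 RPKM, 4.24 and 5.69 RPKM, and 12.2 and 11.9 RPKM in the same 3 groups. The mitotic kinases Aurka and Plk1 were 4.17-fold and 2.96-fold higher than in day 14 control cells. The comparison of day 14 and day 7 control called 15 of the 22 genes lower at day 14 and none higher, whereas that of day 7 LAMZ and day 7 control called 1 lower and none higher. Ccnd1, cyclin D1, and Pcna, a replication clamp, were within 2-fold at differences of -0.05 and 0.38. With libraries scaled to the same sum over the tested genes, 8 of the 22 were higher than in day 14 control and 1 was lower.

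Markers of mesenchymal progenitors were lower, 8 of 12, with the other 4 within 2-fold. Cd34 was 0.689 and 0.639 RPKM in day 7 LAMZ and 13.1 and 13.9 RPKM in day 14 control libraries, a 20.3-fold lower mean (difference -3.12, SE 0.12, adjusted p = 5.33e-06). Ly6a, Sca-1, was 16.3 and 14.8 RPKM against 80.8 and 81.3 RPKM, and Thy1 was 84.7 and 89.5 RPKM against 202 and 220 RPKM. Twist2, a repressor of osteoblast differentiation, had 6 and 5 reads against 48 and 15 reads. The call of Twist2 was lost without day 7 LAMZ replicate 1 (adjusted p = 0.106), day 7 LAMZ replicate 2 (0.146) or day 14 control replicate 1 (0.147). Prrx1 and Eng had differences of -0.09 and -0.24.

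**Figure D4:**
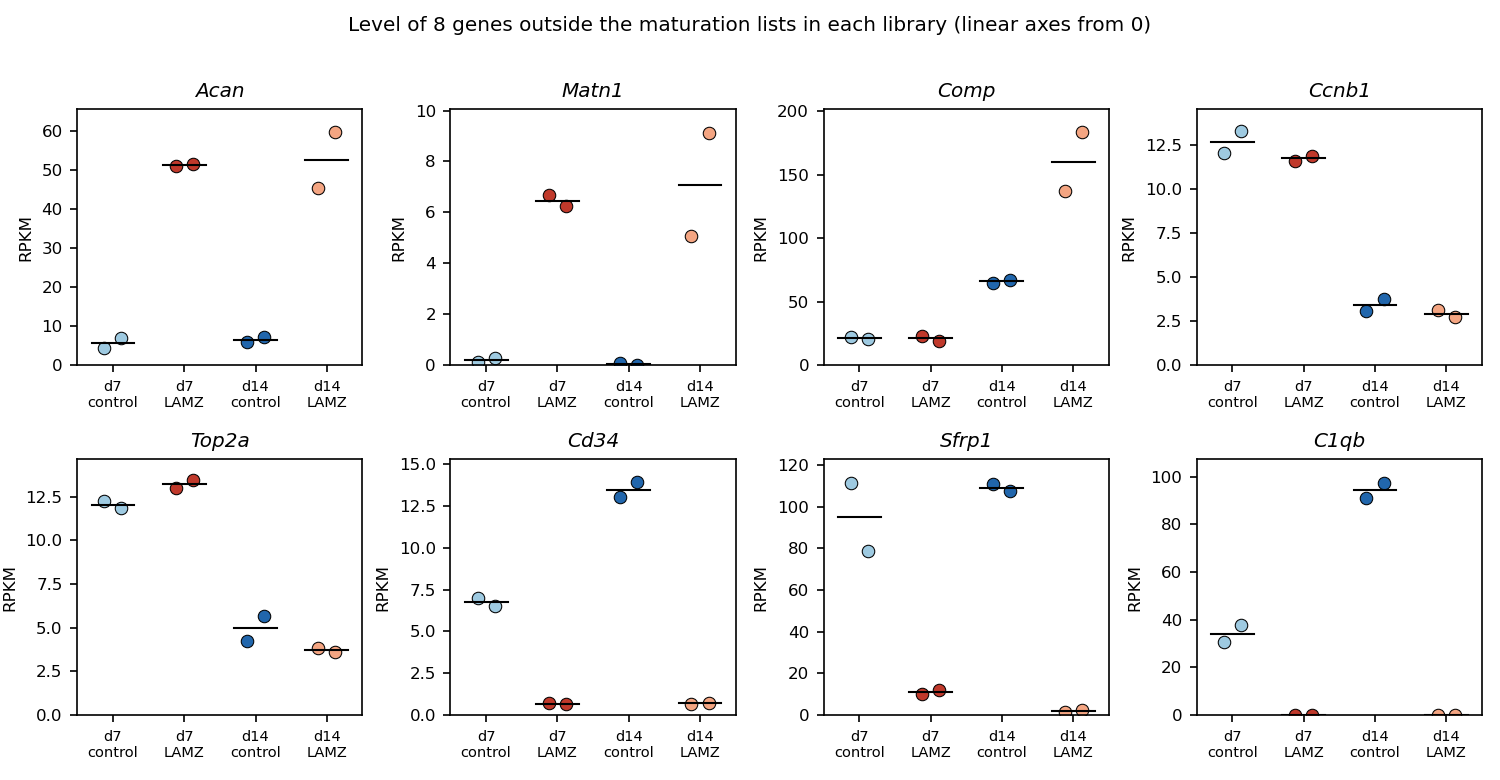
Level in RPKM (vertical axes, linear from 0) of 8 genes outside the maturation lists in each of the 8 libraries, with points for libraries and a line for each group mean. Acan and Matn1 are high in both LAMZ groups, Comp, Ccnb1 and Top2a in day 7 LAMZ lie at the day 7 control level, and Cd34, Sfrp1 and C1qb lie below both controls.

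Of 10 tested genes of PGC-1, MEF2 and calcineurin, which link calcium to transcription, 1 was higher, 2 were lower and 7 were within 2-fold. Mef2c was 16.8 and 13.7 RPKM against 6.80 and 8.33 RPKM (difference 0.92, adjusted p = 0.00471). With libraries scaled to the same sum over the tested genes Mef2c was not called (difference 0.40, adjusted p = 0.0825), and none of the 10 was higher and 6 were lower. Fos and Ppp3ca, a catalytic subunit of calcineurin, were lower by 0.51 and 0.47 on the log2 scale, and Mef2a and Mef2d had differences of -0.41 and 0.12. The calls of Fos and Ppp3ca were lost without any 1 of the 4 libraries, at adjusted p values of 0.0714 to 0.156 for Fos and 0.09 to 0.169 for Ppp3ca, lowest without day 14 control replicate 1 for both. Ppargc1a, which encodes PGC-1α, was not tested, with 6 and 4 reads in day 7 LAMZ and 3 and 1 reads in day 14 control libraries. Of 79 tested cytosolic ribosomal protein genes, 47 were higher, none was lower, 20 were within 2-fold and 12 were left unplaced. Among them Rpl35, Rpl4 and Rps12 were 1.99-fold, 1.89-fold and 1.91-fold higher, and Rpl8 and Rps15 had differences of 0.38 and 0.32. The call of this family depended on the scale, since 1 of the 79 was higher and 1 lower with libraries scaled to the same sum over the tested genes and 10 were higher after quantile normalization. Rps12 and Rpl4 share exon sequence with small nucleolar RNA genes and Rpl35 with Wdr38, so the values of these genes are uncertain. Rps12 was not called without day 7 LAMZ replicate 1 (adjusted p = 0.0671), day 7 LAMZ replicate 2 (0.204) or day 14 control replicate 1 (0.184).

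Markers of other cell types differed between the groups as well. Of 17 macrophage markers tested, 15 were lower in day 7 LAMZ, none was higher and 2 were left unplaced. Their summed level was 10.9 and 8.87 RPKM in day 7 LAMZ, 1228 and 1240 RPKM in day 14 control, 490 and 641 RPKM in day 7 control and 8.82 and 9.15 RPKM in day 14 LAMZ libraries. C1qa, C1qb, C1qc, Tyrobp, Ctss, Laptm5 and Mpeg1 were at 0 in both day 7 LAMZ libraries. Against a floor of 3 reads in each LAMZ library, C1qb was at least 160.4-fold lower, Ctss at least 119.8-fold and C1qa at least 108-fold. Lyz2, lysozyme of macrophages, was 8.20 and 6.27 RPKM against 695 and 789 RPKM, whereas Cd74 and Aif1 did not pass the test. The part of these cells in the differences of the maturation genes was not tested.

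All 7 adipocyte markers tested of 11 listed were lower in day 7 LAMZ, with a summed level of 9.74 and 8.85 RPKM against 71.6 and 136 RPKM. Lpl, lipoprotein lipase, was 4.06 and 3.83 RPKM against 31.9 and 35.3 RPKM, and Cd36, a fatty acid carrier also made by macrophages, was at 0 and at least 46.5-fold lower. Fabp4 and Cfd, or adipsin, differed between the day 14 control libraries, at 6.44 and 41.2 RPKM and at 1.41 and 15.4 RPKM. Cfd was not called without day 7 LAMZ replicate 1, day 7 LAMZ replicate 2 or day 14 control replicate 2 (adjusted p = 0.148, 0.144 and 0.0964), nor Fabp4 without day 7 LAMZ replicate 1 or 2 (0.0645 and 0.0552). The part of adipocytes in the maturation differences was not tested, nor was the part of macrophages in the lower level of these markers.

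Complement and interferon-stimulated genes were lower, 6 of 7 and 9 of 13 tested, with none higher. C3 was 0.410 and 0.224 RPKM against 18.1 and 15.9 RPKM, a 53.6-fold lower mean, Serping1, an inhibitor of complement C1, was 7.77 and 9.82 RPKM against 70.4 and 64.6 RPKM, and C4b and Cfb were lower by 2.77 and 2.51 on the log2 scale. Ifit3, an antiviral protein, was 0.403 and 0.330 RPKM against 18.9 and 12.4 RPKM, and Isg15 was 2.48 and 1.02 RPKM against 28.3 and 10.5 RPKM. Isg15 in day 7 control libraries was 10.5 and 60.7 RPKM. Oasl2 and Ifit1 were called as well, and Irf9 and Stat2 were left unplaced at differences of -0.98 and -0.92. Isg15 was not called without day 7 LAMZ replicate 1, day 7 LAMZ replicate 2 or day 14 control replicate 1 (adjusted p = 0.0801, 0.155 and 0.172), and Ifit1 and Oasl2 without any 1 of the 4 libraries (0.0631 and 0.0637 without day 14 control replicate 2, 0.133 and 0.129 without day 14 control replicate 1).

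Of 5 osteoclast markers tested, Itgb3, integrin β3, was 1.99-fold higher and the other 4 were within 2-fold, among them Ctsk at 85.4 and 90.4 RPKM against 95.1 and 104 RPKM and Acp5 at a difference of 0.15. Of 10 smooth muscle and contractile markers, Acta2, Tpm1 and Myh11 were higher, by 0.66, 0.78 and 1.31 on the log2 scale, none was lower, and Tagln and Myl9 had differences of -0.14 and 0.20. Of 2 endothelial markers tested, Tek was lower, with 3 and 2 reads against 36 and 30 reads. Of 2 skeletal muscle markers tested, Tnnt3 was higher, at 3.11 and 3.88 RPKM against 0.353 and 1.26 RPKM, and Acta1 was left unplaced. The calls of Acta2, Tpm1, Tek and Tnnt3 were lost without day 7 LAMZ replicate 2 (adjusted p = 0.192, 0.0779, 0.0564 and 0.0648), and those of Acta2, Tpm1 and Tek without day 14 control replicate 1 (0.18, 0.0653 and 0.0577). Acta2 was also not called without day 7 LAMZ replicate 1 or day 14 control replicate 2 (0.0607 and 0.0502).

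**Figure D5:**
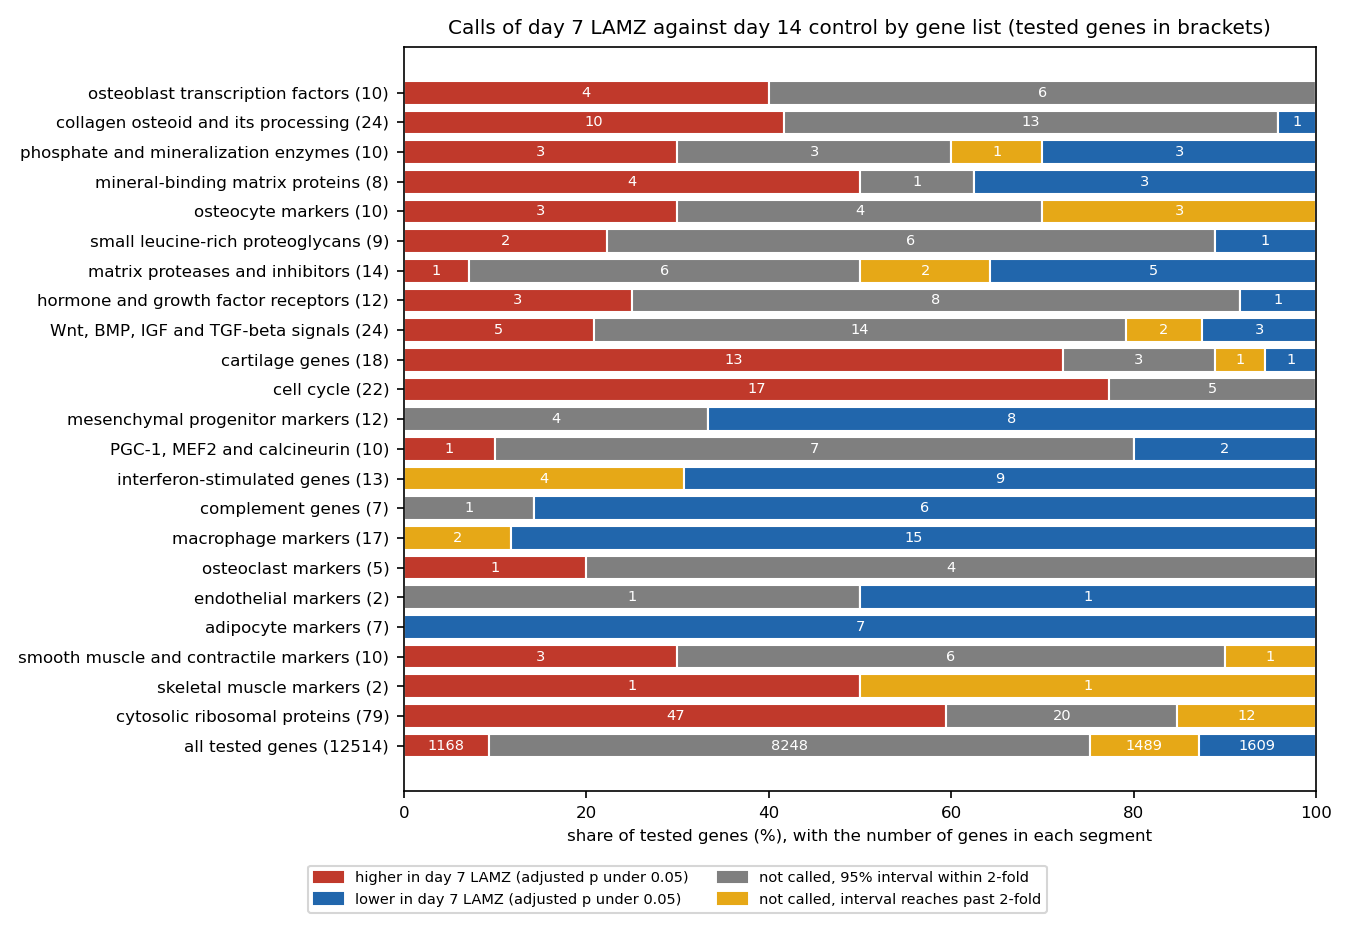
Share of tested genes in each list (horizontal axis, percent) called higher, called lower, within 2-fold or left unplaced in day 7 LAMZ against day 14 control, with gene numbers in the segments. Cell cycle (17 of 22), cartilage (13 of 18) and ribosomal protein genes (47 of 79) were mostly called higher, macrophage (15 of 17) and adipocyte markers (7 of 7) mostly lower, and 9.33% and 12.9% of all tested genes were called higher and lower.

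Outside the lists, the 5 largest called rises without overlap were short RNAs, namely Gm22973, Gm25360 and Gm23143 (small nuclear RNAs), Gm24253 (a small nucleolar RNA) and Mir210 (a microRNA precursor). Gm25360 was 6775 and 4695 RPKM against 345 and 351 RPKM, and Mir210 had 4 and 10 reads against 0 and 0. The call of Mir210 was lost without any 1 of the 4 libraries, at adjusted p values from 0.0511 (without day 7 LAMZ replicate 1) to 0.0987 (without day 7 LAMZ replicate 2), through 0.0781 and 0.0702 for day 14 control replicates 1 and 2. RPKM of such short genes rises steeply with each read. The 5 largest falls were Lyz1, Wfdc17, Marco, Pf4 and the processed pseudogene Gm10020. The call of Gm10020 was likewise lost, at 0.0888 and 0.0885 without day 7 LAMZ replicates 1 and 2 and at 0.0994 and 0.0695 without day 14 control replicates 1 and 2. Marco and Pf4, a scavenger receptor and a chemokine of myeloid cells, had 209 and 324 reads and 102 and 88 reads in day 14 control libraries and none in day 7 LAMZ, where they were at least 86.5-fold and 30.1-fold lower.

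The scale of the libraries bears on the balance of calls. The 7SL RNA gene Rn7s1 took 18.1% to 20.2% of summed RPKM in day 14 control and 29.9% to 33.7% in day 7 LAMZ libraries. As deposited, 42.1% of calls were higher in day 7 LAMZ. The sum over the tested genes includes Rn7s1. With each library scaled to the same sum over the tested genes, the median difference of all genes was -0.47, 5.54% of calls were higher, and 13 maturation genes were higher and 28 lower. With medians centred 55.6% of calls were higher, and 32 maturation genes were higher and 7 lower. Under both scalings Sp7, Dlx5, P4ha1, P4ha2, P3h1, Tnc, Alpl, Phospho1, Smpd3, Spp1, Ibsp, Dmp1 and Dkk1 were called higher, and Bglap, Bglap2, Bglap3, Mgp, Ank, Fam20c and Loxl1 lower.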

How the data were processed

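RNA of mouse osteoblast progenitors was sequenced in 8 libraries, 2 in each of 4 groups (DMSO control or LAMZ at 1 μM, day 7 or day 14), grouped by the sample labels. The authors sequenced on an Ion Proton, processed the reads with CLC Genomics Workbench and deposited RPKM per gene symbol. The submitters' processing notes name the mm10 build. The version, counting settings and any scaling between libraries are not given in the sources used here. Of 51826 entries, 4 with date-like symbols were dropped, and 47465 symbols matched GENCODE M21 (GRCm38).

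The depth of each library was taken as the total that turns the small RPKM values of genes with 1 exon into whole numbers of reads (tolerance 0.03), as was so for 96.4% to 97.7% of the values. Folds against groups at 0 used a floor of 3 reads per library. Floors cover counting error only, since PCR reads are not independent molecules.

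Genes that reached an RPKM of 1 in 2 or more libraries were fitted on log2(RPKM + 1) in limma 3.58.1 (R 4.3.3) as 4 groups with a mean-variance trend, 4 residual degrees of freedom and Benjamini-Hochberg adjustment over all 12514 genes (two-sided). An exact permutation test of 2 against 2 libraries was not used, since it cannot reach the threshold. The fit was also run on simulated data with the same spread set for every gene, which checks the code and not the calls in these data. Maturation genes were named at RPKM of at least 1 in 1 of the 4 libraries. From other lists, up to 4 called genes with the largest differences and up to 2 uncalled genes with the highest mean were named, and 5 rises and 5 falls outside the lists. Genes and lists were chosen with earlier results of these data known. Alternatives were pseudocount, filter, scaling, a replicate block, the libraries fitted, the trend, the margin and leaving out each library. Some genes that this rule names are not reported here.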

Additional observations from a re-analysis of the deposited data

How the results depend on the processing

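As fitted, 1168 genes were higher, 1609 lower and 8248 within 2-fold. With no filter on low values the higher genes were 736 and those within 2-fold 24594. With libraries scaled to the same sum over the tested genes they were 350 higher, 5970 lower and 4932 within 2-fold. A margin of 1.5-fold in place of 2-fold left 4192. Leaving out 1 of the 4 libraries compared, where the lone library is assumed to vary like the other groups, gave 480 to 886 higher, 814 to 935 lower and 7663 to 8069 within 2-fold. Of 161 named genes tested under 15 settings, 11 values turned, meaning that a called gene changed sign or that a gene not called as fitted was called with the other sign, all with libraries scaled to the same sum over the tested genes. These were -0.0261 for Col5a2, -0.0713 for Serpinh1, -0.0359 for Plod1, -0.144 for Postn, -0.503 for Plod2, -0.563 for Bgn, -0.391 for Dcn, -0.428 for Bmpr1a, -0.483 for Igfbp2, -0.457 for Dkk3 and -0.366 for Myl9. Of 940 values of genes not called as fitted, 69 changed sign, the last 7 of these included. Of the 98 named genes called as fitted, 44 lost the call under at least 1 setting. Of the 26 maturation genes called higher, 11 kept the call under every setting (Sp7, Dlx5, P4ha1, P4ha2, P3h1, Tnc, Phospho1, Smpd3, Ibsp, Dmp1 and Dkk1), and of the 8 called lower, Mgp did. Of the 33 within 2-fold, 5 kept that placement under every setting (Ppib, Fn1, Phex, Slc20a2 and Aspn), and none of the 4 unplaced stayed so under every setting. The numbers of maturation genes called higher and lower were 16 and 2 without day 7 LAMZ replicate 1, 18 and 2 without day 7 LAMZ replicate 2, 15 and 2 without day 14 control replicate 1 and 21 and 3 without day 14 control replicate 2. They were 24 and 11 with the same sum over nuclear protein-coding genes, a scaling chosen after seeing the data. The median difference of all genes was -0.10 under that scaling. Between day 7 LAMZ and day 14 control, the deviations of same-numbered libraries from their group means correlated at 0.0625 over genes. No pairing by number was thus seen between these groups, and pairing with the other groups was not checked. With a replicate block 2494 genes were called in place of 2777. At this depth, genes of a few reads such as Mepe, Tnfsf11 and Ppargc1a cannot show moderate differences.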
